A study of Mus musculus with 35 samples.

Results

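The peaks described here are places in the genome of the mouse retina where the histone mark H3K4me3 was called at birth (P0) and not in the maturing retina (P14 and P21). They were chosen by a rule on the H3K4me3 peak lists themselves. A peak of wild-type P0 replicate 2 was kept when it shared at least 1 bp with a peak of P0 replicate 1 and with no peak of the 4 wild-type H3K4me3 libraries of P14 (replicates 2 and 3 by their titles) and P21 (replicates 1 and 2). Of 21661 peaks in P0 replicate 2, 19323 were found in both P0 replicates. Of these, 1868 (9.67%) had no later peak and are called lost. A further 2179 had a peak in 1 to 3 later libraries and are called partly retained, and 15276 had a peak in all 4 and are called retained. The rule uses presence and absence of a call, so the height and the count of lost peaks in these 6 libraries describe the rule and are given without a test.

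The libraries are ChIP-Seq of whole retinae of mice. Wild-type retinae gave 2 libraries each for H3K4me3, H3K27Ac and H3K27me3 at P0, P14 and P21, and at P12 gave 1 library for H3K4me3, 1 for H3K27Ac and 2 for H3K27me3. Brg1-deficient retinae at P12 gave 1, 2 and 1 libraries for these marks. They came from Chx10-Cre;Brg1 Lox/Lox mice, in which the Cre transgene acts in retinal progenitor cells in a mosaic pattern, so that a retina also holds cells that keep Brg1. Brg1 itself was measured in 1 library, with an antibody to FLAG, in P0 retinae of knock-in mice whose own Brg1 protein carries a FLAG tag. The labels name one H3K27me3 antibody (AB1) for P0, P14 and P21 and another (AB3) for P12. A whole retina is a mixture of cells whose makeup changes after birth, so fewer cells that carry a mark and less of the mark per cell cannot be told apart.

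H3K4me3 (trimethylation of histone H3 at lysine 4) is laid down at the promoters of genes that are active or held ready for activity. H3K27Ac marks active promoters and enhancers. H3K27me3 is deposited by Polycomb complexes over silent developmental genes, and a promoter that carries both H3K4me3 and H3K27me3 is called bivalent. Brg1 powers the SWI/SNF (BAF) complexes, which use ATP to move nucleosomes. The files are on the mouse build mm9, for which no gene annotation was used here, so loci are given by position (mm9) and without gene names.

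Lost peaks were low and short at P0. Height is the fold enrichment of a peak over background at its summit. In replicate 2 it ranged from 2.18 to 28.6 among the 1868 lost peaks with a median of 6.12, against medians of 8.93 in partly retained and 35.0 in retained peaks. In replicate 1 the medians were 4.84, 6.95 and 33.2. The median length in replicate 2 was 582 bp for lost, 752 bp for partly retained and 1710 bp for retained peaks. The middle 50% of the lost peaks lay between 4.56 and 8.37 in replicate 2, and the 5th percentile of the retained peaks was 9.52. When each P0 list was reduced to its strongest 90% by q-value, 1001 lost peaks were left, 351 at 80%, 57 at 70%, 4 at 60% and 0 of 10086 at 50%. No lost peak thus lay in the stronger 50% of both P0 lists.

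**Figure D1:**
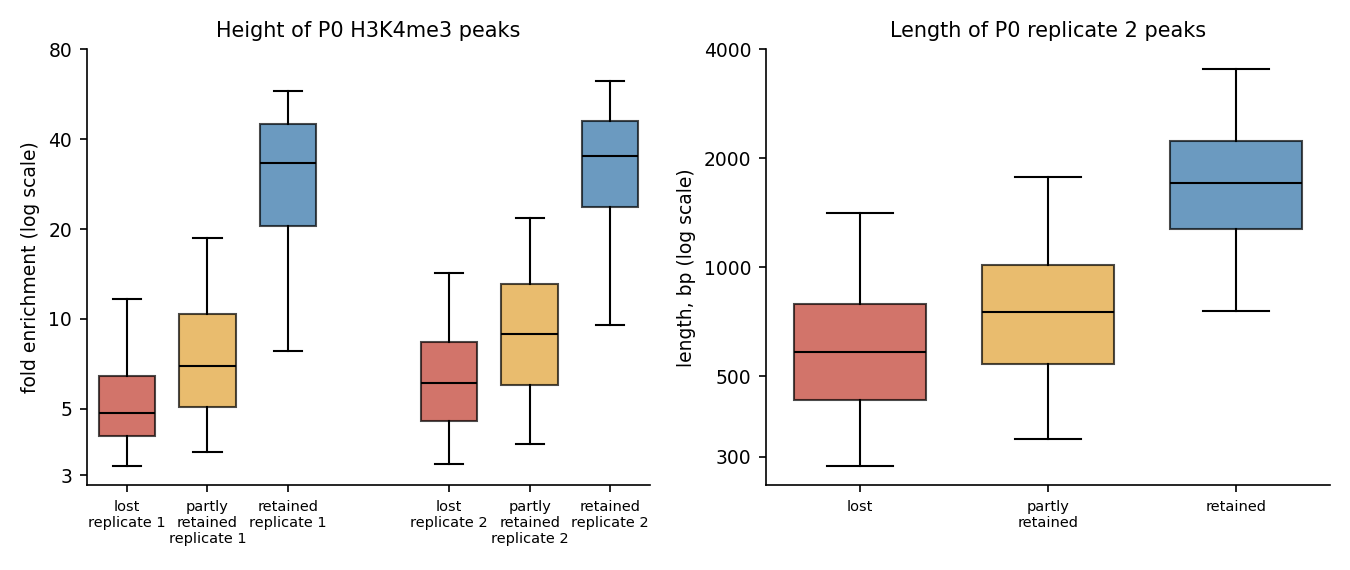
Boxes give the median and quartiles and whiskers the 5th and 95th percentiles, on log axes, for 1868 lost, 2179 partly retained and 15276 retained P0 H3K4me3 peaks. Left, fold enrichment in each P0 replicate. Right, length in bp in replicate 2. The median height of lost peaks was 4.84 and 6.12 in the replicates, against 33.2 and 35.0 for retained peaks.

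The lost peak nearest to a later H3K4me3 peak, at chr17:31432342-31432670, lay 23 bp from it, and the next, at chr9:58049604-58050267, lay 33 bp away. Just outside the rule, the P0 peak at chr4:136461221-136461626 shared 15 bp with 1 later peak and the one at chr1:188525142-188525674 shared 22 bp. In all, 677 P0 peaks had a peak in exactly 1 later library, with a median P0 height of 7.04 in replicate 2. For 509 of them (75.2%) that library was P21 replicate 1, for 96 P14 replicate 3, for 65 P14 replicate 2 and for 7 P21 replicate 2. P21 replicate 1 held 24124 peaks and the other 3 held between 18534 and 19829. Without it the rule would give 2377 lost peaks. With the same number of strongest peaks (18534) taken from each P0, P14 and P21 library, it would give 1111. The number of lost peaks thus changed with the length of the lists compared. The lists hold no reads, so sequencing depth is unknown.

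Lost peaks lay at a median distance of 20426 bp from the nearest H3K4me3 peak of any of the 4 later libraries, and the farthest lay 1071160 bp away. Of the 1868, 189 (10.1%) lay within 1000 bp of such a peak and 525 (28.1%) within 5000 bp. A smaller set of 110 lost peaks (5.89%) overlapped a replicate 1 peak that also covered another replicate 2 peak, so that the split of 1 domain into several calls and separate peaks cannot be told apart there. In these the median height was 4.39 in replicate 2 and 6.19 in replicate 1, where the highest reached 61.2. The share of P0 peaks that were lost was 9.77% over the autosomes and ranged from 7.09% on chromosome 11 to 12.9% on chromosome 12. On the X chromosome it was 6.79%, and none of 3 peaks on the Y chromosome was lost.

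At P0 the lost peaks fell into a group with H3K27me3, a smaller group with H3K27Ac and a large group with neither. With the mark required in both P0 replicates, 147 (7.87%) carried H3K27Ac without H3K27me3, 746 (39.9%) carried H3K27me3 without H3K27Ac, 6 (0.321%) carried both and 969 (51.9%) carried neither. Among retained peaks these shares were 62.8%, 15.4%, 10.5% and 11.3%. Partly retained peaks had shares near those of lost peaks, at 10.1%, 40.1%, 1.42% and 48.4%. With the mark required in only 1 replicate, 460 lost peaks carried H3K27Ac alone, 798 H3K27me3 alone, 94 both and 516 neither. The acetylated lost peaks had a median P0 height of 6.12 in replicate 2 and the H3K27me3 group of 6.33, so these groups were of like height in the mark that the rule used.

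H3K27me3 islands, which are broad domains called over windows, covered many lost peaks at every stage. Of the 1868 lost peaks, 781 (41.8%, Wilson 95% interval 39.6 to 44.1%) lay in an island of P0 replicate 1 and 863 (46.2%) in one of P0 replicate 2. At P14 the counts were 838 (44.9%) and 1091 (58.4%), and at P21 943 (50.5%) and 1028 (55.03%). Among the 15276 retained peaks the shares were lower in all 6 libraries, at 27.2% and 32.0% at P0, 24.8% and 30.1% at P14, and 26.03% and 28.7% at P21. In partly retained peaks the shares were close to those of lost peaks. They were 42.5% and 49.3% at P0, 44.1% and 56.1% at P14, and 48.6% and 53.0% at P21. A high H3K27me3 share was thus not particular to lost peaks. The islands covered 96.7 and 114 Mb at P0, 127 and 213 Mb at P14, and 142 and 152 Mb at P21, and the part of this widening in the later shares was not tested. The list of P14 replicate 2 holds no island on the X chromosome, where 43 lost peaks lie. Without this chromosome the share of lost peaks in islands of both P14 replicates was 44.5% in place of 43.5%.

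**Figure D2:**
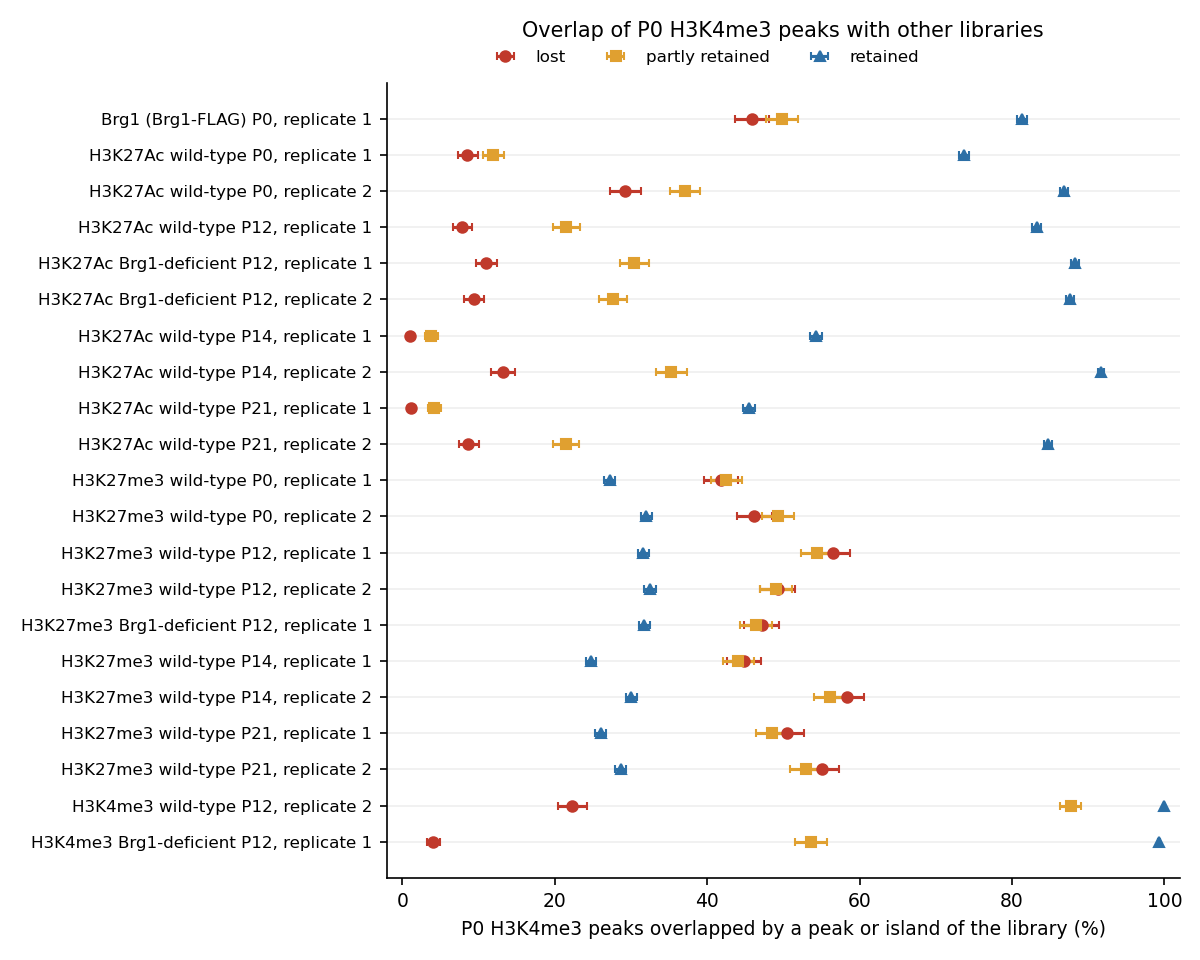
Each row is 1 library, and points give the share of P0 H3K4me3 peaks, in percent, that overlap a peak or island of that library, with Wilson 95% intervals, for lost (circles), partly retained (squares) and retained (triangles) peaks. Lost peaks sit left of retained peaks in the Brg1, H3K27Ac and H3K4me3 rows and right of them in all 9 H3K27me3 rows. In the H3K27me3 rows partly retained peaks lie near the lost peaks.

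Lost peaks in H3K27me3 islands at P0 mostly lay in islands at P21 too, when H3K4me3 was no longer called. Whether both marks lay in the same cells at P0 was not measured in whole retinae. Of the 752 lost peaks with islands in both P0 replicates, 704 (93.6%, interval 91.6 to 95.2%) had islands in both P21 replicates. Of 3963 retained peaks with islands in both P0 replicates, 2965 (74.8%, interval 73.4 to 76.1%) did. Of 905 such partly retained peaks, 810 (89.5%, interval 87.3 to 91.3%) did. Some lost peaks lay in islands at later stages only. Of the 976 lost peaks with no island in either P0 replicate, 87 (8.91%) had islands in both P14 replicates, 131 (13.4%, interval 11.4 to 15.7%) in both P21 replicates and 70 (7.17%) in all 4. Among retained peaks without an island at P0 the P21 share was 542 of 10189 (5.32%), and among partly retained peaks 120 of 1083 (11.1%).

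Since lost peaks were low, the same shares were compared with those of retained peaks of like P0 height, within the quartiles of the height of lost peaks in replicate 2 (bounds 4.56, 6.12 and 8.37). At P0 the H3K27me3 shares overlapped in part. From the lowest to the highest quartile, 37.3%, 37.5%, 37.9% and 48.4% of lost peaks lay in islands of both P0 replicates, against 28.2%, 29.5%, 39.1% and 42.2% of retained peaks. For partly retained peaks these shares were 33.2%, 38.7%, 36.9% and 45.0%. At P21 the shares lay further apart, at 46.0%, 44.4%, 47.5% and 57.6% of lost peaks against 22.6%, 23.0%, 33.3% and 41.2% of retained peaks, and the intervals did not overlap in any quartile. Partly retained peaks lay between, at 30.4%, 41.7%, 39.8% and 53.0%. Their intervals overlapped those of lost peaks in all but the lowest quartile. Islands in both P21 replicates at peaks with none at P0 were found for 14.7%, 10.4%, 13.7% and 15.4% of lost peaks and for 2.38%, 2.61%, 1.36% and 7.73% of retained peaks. Among partly retained peaks these shares were 5.81%, 8.33%, 11.4% and 12.9%. The highest quartile reaches from 8.37 to 28.6 and retained peaks fill its upper part, so heights are least alike there. Neighbouring peaks can share an island, so these intervals, which cover counting error only, are too narrow.

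**Figure D3:**
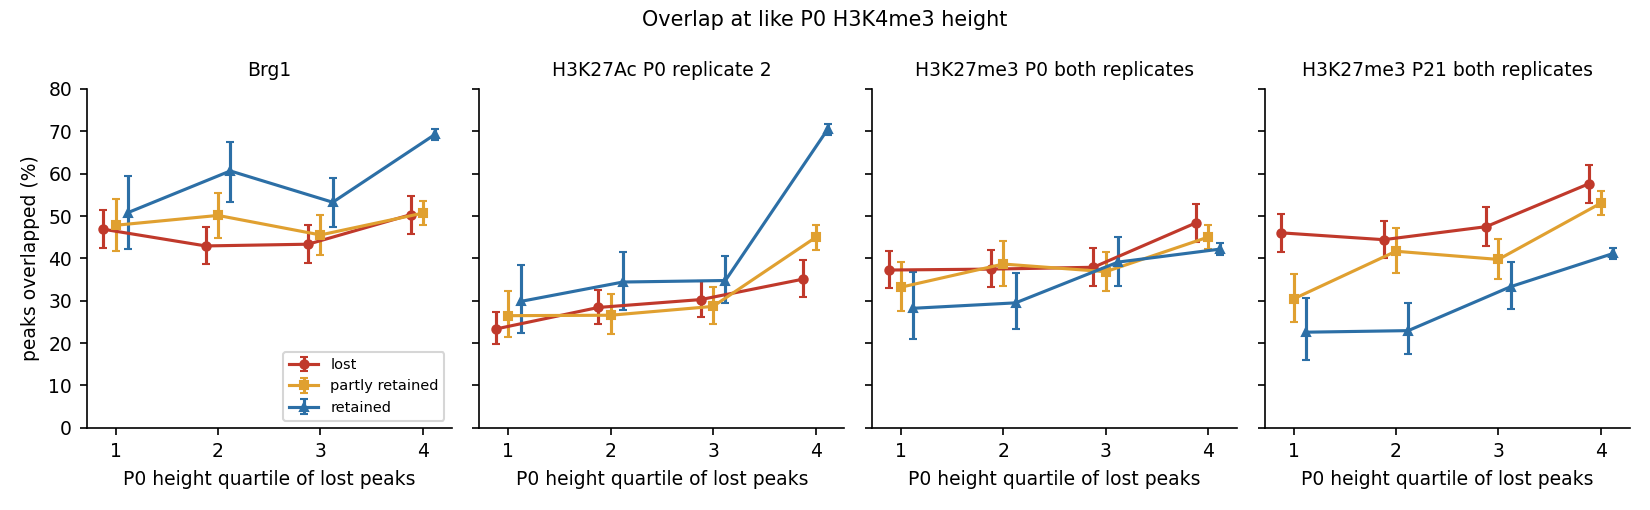
Share of P0 H3K4me3 peaks, in percent with Wilson 95% intervals, that overlap Brg1 peaks, H3K27Ac peaks of P0 replicate 2, H3K27me3 islands of both P0 replicates and of both P21 replicates, within the height quartiles of lost peaks (1 lowest, 4 highest). In the P21 panel the lost peaks (46.0, 44.4, 47.5 and 57.6%) lie above the retained peaks in each quartile, and partly retained peaks lie between.

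H3K27Ac was present at a minority of the lost peaks at P0 and at fewer later. It was called at 160 lost peaks (8.57%) in P0 replicate 1 and at 547 (29.3%) in P0 replicate 2. Replicate 1 held 17588 H3K27Ac peaks in all and replicate 2 held 29304. At P14 the counts were 19 (1.02%) in replicate 1 and 246 (13.2%) in replicate 2, and at P21 21 (1.12%) and 162 (8.67%). The replicate 2 lists of P14 and P21 held 50005 and 45833 peaks, and the part of list length in these counts was not tested. Partly retained peaks went from 11.9% and 37.1% at P0 to 3.76% and 35.3% at P14 and 4.13% and 21.5% at P21. In the same libraries the retained peaks went from 73.7% and 86.8% at P0 to 54.3% and 91.7% at P14 and 45.5% and 84.7% at P21. At like P0 height, 16.1%, 14.5%, 11.1% and 10.9% of lost peaks in the 4 quartiles had an H3K27Ac peak in P14 replicate 2, against 78.2%, 79.2%, 75% and 81.6% of retained peaks. The H3K27Ac libraries were not used by the rule, although both marks are found at active promoters.

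Of the 147 lost peaks with H3K27Ac and no H3K27me3 at P0, 117 carried neither mark in both replicates at P21, 21 lay in H3K27me3 islands and 9 kept H3K27Ac. Of the 746 with H3K27me3 and no H3K27Ac, 698 stayed in that state, 47 carried neither and 1 carried H3K27Ac. Of the 969 with neither mark at P0, 770 had neither at P21, 188 lay in islands and 11 carried H3K27Ac. No lost peak carried both marks at P14 or P21. By the less strict count of replicate 2 alone, 76 of the 147 (51.7%) still had an H3K27Ac peak at P14 and 58 (39.5%) at P21. Partly retained peaks changed in a like way. Of 219 with H3K27Ac and no H3K27me3 at P0, 152 (69.4%) carried neither mark at P21. Of the same 219, 43 (19.6%) lay in islands and 24 (10.96%) kept H3K27Ac. Of 874 with H3K27me3 and no H3K27Ac, 783 (89.6%) stayed in that state. Among retained peaks, 5848 of 9588 kept H3K27Ac and 1931 of 2355 stayed in the H3K27me3 state. The order of these changes was thus not particular to lost peaks when set against partly retained peaks.

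**Figure D4:**
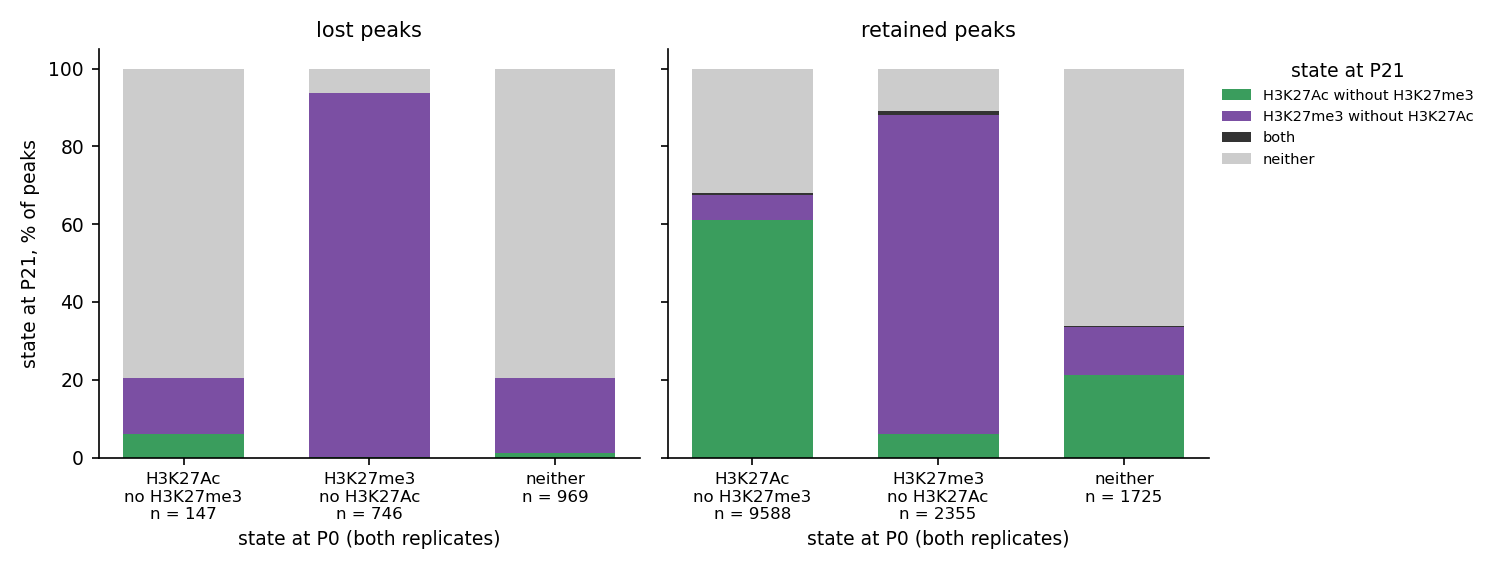
State at P21, in percent of peaks, for lost (left) and retained (right) P0 H3K4me3 peaks grouped by their state at P0, each mark required in both replicates of a stage. Among lost peaks 93.6% of the H3K27me3 group kept that state and 6.12% of the 147 acetylated peaks kept H3K27Ac.

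Heights of H3K27Ac were compared between stages with limma over all 33340 merged H3K27Ac regions that had a peak in at least 2 of the 6 wild-type P0, P14 and P21 libraries. Such regions overlapped 291 of the 1868 lost peaks. For P14 against P0 no region was called at an adjusted p of 0.05 in either direction, so 0 lost peaks were called and the background was 0%, while at an unadjusted p of 0.05 there were 5337 of the 33340 regions in either direction and 101 lost peaks lower and 4 higher. For P21 against P0, 49 of the 291 lay in regions called lower and 2 in regions called higher, where 2.46% of all tested regions were called lower and 7.94% higher. Of the 291, 72 had regions with H3K27Ac peaks at P0 only, as did 1235 of the 33340 regions. A region that passes the filter through P0 alone had to be lower later, and 44 of the 49 were of this kind. The counts in both comparisons, unadjusted ones included, therefore describe these loci and support nothing more. The median log2 difference over the 302 tested regions at lost peaks was -0.84 for P14 and -0.88 for P21, against 0.36 and 0.52 over all tested regions, and the same regions fix part of these medians. A separate limma fit held the 6394 regions with an H3K27Ac peak in every library, of which 8 overlapped 9 lost peaks. The medians over these 8 regions were -0.37 for P14 and 0.04 for P21, against -0.0009 and 0.005 over all 6394. At an unadjusted p of 0.05, 0 of the 9 lost peaks were lower and 1 higher for P14, and 1 of each for P21. Of the 6394 regions, 853 for P14 and 1150 for P21 lay below that p in either direction. The calls were not stable. The P21 count was 0 of 291 without scaling, when 0% of all regions were called lower. With a pseudocount of 1 it was 77 of 291, when 3.94% of all regions were called lower. Leaving out 1 library left a stage with 1 library, so only medians are given. At lost peaks the P21 median then lay between -1.62 (without P21 replicate 2) and -0.52 (without P0 replicate 2). Over all regions of the same fits it was -0.41 and 0.75.

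Brg1 was found at nearly all acetylated lost peaks and at fewer of the others. Of the 1868 lost peaks, 857 (45.9%, interval 43.6 to 48.1%) overlapped one of 50861 Brg1 peaks at P0, against 1085 partly retained (49.8%) and 12426 retained peaks (81.3%). By P0 state, Brg1 lay at 137 of the 147 lost peaks with H3K27Ac alone (93.2%, interval 87.9 to 96.3%), at 337 of the 746 with H3K27me3 alone (45.2%, interval 41.6 to 48.8%), at 5 of the 6 with both and at 378 of the 969 with neither (39.0%). Retained peaks no higher than the highest lost peak had Brg1 at 84.4% of 1768 acetylated peaks (interval 82.6 to 86.0%), at 63.0% of 1758 H3K27me3 peaks (interval 60.7 to 65.2%) and at 45.4% of 1378 peaks with neither mark. For partly retained peaks under the same limit these shares were 88.7% of 213, 48.2% of 856 and 41.1% of 1052. The order by P0 state was thus not particular to lost peaks. Within the quartiles of P0 height Brg1 lay at 46.9%, 42.9%, 43.4% and 50.3% of lost peaks and at 50.8%, 60.7%, 53.3% and 69.3% of retained peaks, a narrower gap than over all peaks, and the intervals overlapped in the lowest and the third quartile. Partly retained peaks had Brg1 at 47.8%, 50.2%, 45.5% and 50.7%. Where present, the median Brg1 fold enrichment was 4.78 at lost and 5.91 at retained peaks, and the median distance between the Brg1 and H3K4me3 summits was 237 and 188 bp. All of these values rest on 1 Brg1 library.

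At P12, H3K4me3 was called at 416 lost peaks (22.3%, interval 20.4 to 24.2%) in the wild-type library and at 75 (4.01%, interval 3.22 to 5.004%) in the Brg1-deficient library. Both libraries had a peak at 48 of the lost peaks, only the wild-type at 368, only the Brg1-deficient at 27 and neither at 1425. Each genotype had 1 library, so the difference has no replicate check and no test. The wild-type list held 22846 peaks and the Brg1-deficient list 19495. When the wild-type list was cut to its 19495 strongest peaks, 149 lost peaks (7.98%, interval 6.83 to 9.29%) still overlapped it, and the difference fell from 18.3 to 3.96 percentage points. Both shares also moved with the rule. They were 31.3% and 7.61% when P21 replicate 1 was left out of it, and 45.9% and 12.7% of the 1111 peaks lost with equal peak numbers in its libraries. Single wild-type libraries of later stages differed as widely. Of the P0 peaks absent from the other 3 later libraries, a peak was present for 21.4% in P21 replicate 1, for 4.89% in P14 replicate 3, for 3.36% in P14 replicate 2 and for 0.373% in P21 replicate 2.

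The lost peaks still called in the wild-type P12 library were low. Their median fold enrichment at P12 was 4.46 where only the wild-type library had a peak and 5.41 where both had one, and none lay among the stronger 50% of the wild-type P12 peaks. From the lowest to the highest quartile of P0 height, 14.1%, 17.1%, 22.4% and 35.5% of lost peaks had a wild-type P12 peak and 2.78%, 2.95%, 2.40% and 7.92% a Brg1-deficient one. Partly retained peaks also had fewer Brg1-deficient calls, with 87.7% in the wild-type and 53.6% in the Brg1-deficient library. In the same quartiles their shares were 71.5%, 85.8%, 83.6% and 92.9% in the wild-type and 35.2%, 42.3%, 42.9% and 63.8% in the Brg1-deficient library. A lower Brg1-deficient share was thus not particular to lost peaks. Among retained peaks of these quartiles the Brg1-deficient library had a peak at 93.5%, 94.0%, 94.9% and 98.7%. Brg1 lay at P0 at 48.6% of the 368 wild-type-only peaks and at 45.1% of the 1425 with neither. By P0 state a wild-type P12 peak was found at 35 of the 147 acetylated lost peaks (23.8%), 201 of the 746 with H3K27me3 (26.9%) and 177 of the 969 with neither (18.3%), and a Brg1-deficient one at 6, 38 and 31.

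At P12 H3K27Ac was called at more P0 peaks of every class, lost peaks included, in the Brg1-deficient than in the wild-type libraries. It was found at 146 lost peaks (7.82%) in the wild-type library and at 205 (10.97%) and 175 (9.37%) in the Brg1-deficient libraries. The Brg1-deficient lists held fewer but longer peaks. They had 40465 and 42887 peaks over 30.8 and 34.4 Mb (median length 507 and 514 bp). The wild-type list had 47404 peaks over 33.3 Mb (median 444 bp). With 1 wild-type library the difference was not tested. The shares of partly retained peaks were 21.5% against 30.4% and 27.6%, and those of retained peaks 83.3% against 88.3% and 87.6%. H3K27me3 islands covered 1056 (56.5%) and 920 (49.3%) in the wild-type libraries and 881 (47.2%) in the Brg1-deficient library, which lay below both wild-type values. The Brg1-deficient list was also shorter, with 20120 islands over 126 Mb against 22577 and 25391 islands over 141 Mb each. Shares of partly retained peaks were 54.4% and 49.1% against 46.4%, and of retained peaks 31.6% and 32.5% against 31.7%. With 1 Brg1-deficient library the difference was not tested. Of the 746 lost peaks with H3K27me3 at P0, 735 and 705 lay in islands of the wild-type and 688 in islands of the Brg1-deficient P12 library.

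Most lost peaks stood alone, and those in groups of 4 or more were nearly all in H3K27me3 islands. With lost peaks linked when they were at most 20000 bp apart, 1411 (75.5%) were alone, 373 lay in 169 groups of 2 or 3, and 84 lay in 17 groups of 4 or more. Islands of both P0 replicates covered 437 (31.0%, interval 28.6 to 33.4%) of the lone peaks, 236 (63.3%) of those in groups of 2 or 3 and 79 of the 84 (94.0%) in the larger groups. The H3K27Ac shares went the other way, at 8.86%, 6.70% and 3.57%. Peaks of 1 group often lie in the same island and are not independent of each other.

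The group with the most members, at chr11:96115269-96181568, held 10 lost peaks in 66300 bp, with P0 heights from 4.01 to 21.01 in replicate 2. All 10 lay in islands of both replicates at P0, P14 and P21, in P0 replicate 1 within a single island of 247800 bp. Brg1 overlapped 7, none was acetylated in either P0 replicate, 1 had a wild-type P12 peak and 0 a Brg1-deficient one. No retained or partly retained peak lay inside this stretch. The group at chr2:74549670-74588425 was of the same kind, with 5 lost peaks, all in islands at the 3 stages, no acetylation and no retained peak, inside an island of 142600 bp in P0 replicate 1. Groups of 6 lost peaks at chr19:44798342-44834563, chr2:73101490-73119101 and chr5:120106839-120156860 also lay wholly in islands at all 3 stages, and each held 1 retained peak. A single larger group was free of H3K27me3. At chr13:100211655-100217722, 4 lost peaks lay within 6068 bp with heights from 4.56 to 12.03, all 4 with H3K27Ac in at least 1 P0 replicate and with Brg1, and none with H3K4me3 at P12 in either genotype. None lay in islands of both replicates at P0 or at P21. At 3 of the 4, H3K27Ac was called in both replicates at P0 and again at P21, so that these make up 3 of the 9 acetylated lost peaks that kept the mark.

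The 20 highest lost peaks, ranked by the mean log2 height over both P0 replicates, show the same groups. H3K27me3 covered 12 of them in both P0 replicates and 14 in both P21 replicates, H3K27Ac was called at 5 in both P0 replicates and Brg1 at 15. A peak at P12 was found at 8 in the wild-type and at 3 in the Brg1-deficient library. In 2 of the 20, at chr12:74049834-74050643 and chr10:79580989-79581834, replicate 1 was high (53.1 and 53.8) and replicate 2 low (5.85 and 5.49), and both belong to the 110 peaks that share their replicate 1 peak.

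The highest lost peak, at chr12:3890952-3893079, had a fold enrichment of 29.1 and 23.2 in P0 replicates 1 and 2. It carried H3K27Ac at P0 (6.53 and 7.59) and Brg1 (7.73) and no H3K27me3 in any library. At P14 H3K27Ac was called in replicate 2 alone (3.50) and at P21 in neither, and at P12 H3K4me3 (3.55) and H3K27Ac (3.98, replicate 2) were called in Brg1-deficient retinae alone. By P21 neither active mark nor an island was called at this locus.

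The peak at chr9:51953746-51958051 was, at 4306 bp, the longest lost peak. Its H3K4me3 heights at P0 were 16.4 and 26.3, its H3K27Ac heights 6.01 and 7.25 and its Brg1 height 4.96. No H3K27Ac peak and no island was called there at P14 or P21, and no H3K4me3, H3K27Ac or H3K27me3 at P12 in either genotype.

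A pair of the highest acetylated peaks came to lie in islands. At chr7:17578878-17580739, with H3K4me3 at 16.8 and 25.7, H3K27Ac at 5.35 and 8.78 and Brg1 at 7.25 at P0, no island was called at P0 and all 4 libraries of P14 and P21 had one. Both wild-type P12 libraries had an island there and the Brg1-deficient one did not. At chr19:22766937-22769583, with H3K4me3 at 16.0 and 19.3, H3K27Ac at 4.72 and 6.43 and Brg1 at 4.47, islands were absent at P0 and present in all 4 later libraries and in the P12 libraries of both genotypes. This peak was the farthest of the 20 from a later H3K4me3 peak, at 221515 bp.

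The peaks among the 20 with islands in both P0 replicates kept islands at every stage. At chr1:42742750-42744224 H3K4me3 stood at 21.2 and 28.2 at P0, Brg1 at 5.62 and H3K27Ac at none, and every H3K27me3 library from P0 to P21 had an island. In the wild-type P12 library H3K4me3 was still called there at 4.72 and in the Brg1-deficient one not at all. At chr10:45188797-45190531 H3K4me3 stood at 18.7 and 25.2 with islands at every stage and without Brg1. The neighbouring peaks at chr1:78185284-78186848 (15.9 and 28.6) and chr1:78192640-78194196 (16.4 and 19.6) both had Brg1, at 3.36 and 3.93, and islands in every library. The peak at chr6:83086768-83088442 is 1 of the 6 lost peaks with both marks in both P0 replicates. Its H3K4me3 heights were 21.3 and 17.5, its H3K27Ac heights 8.19 and 7.19 and its Brg1 height 9.21. At P12 H3K27Ac was called in all 3 libraries (3.76 in the wild-type, 3.64 and 6.15 in the Brg1-deficient), and at P14 and P21 in none, while the islands stayed.

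**Figure D5:**
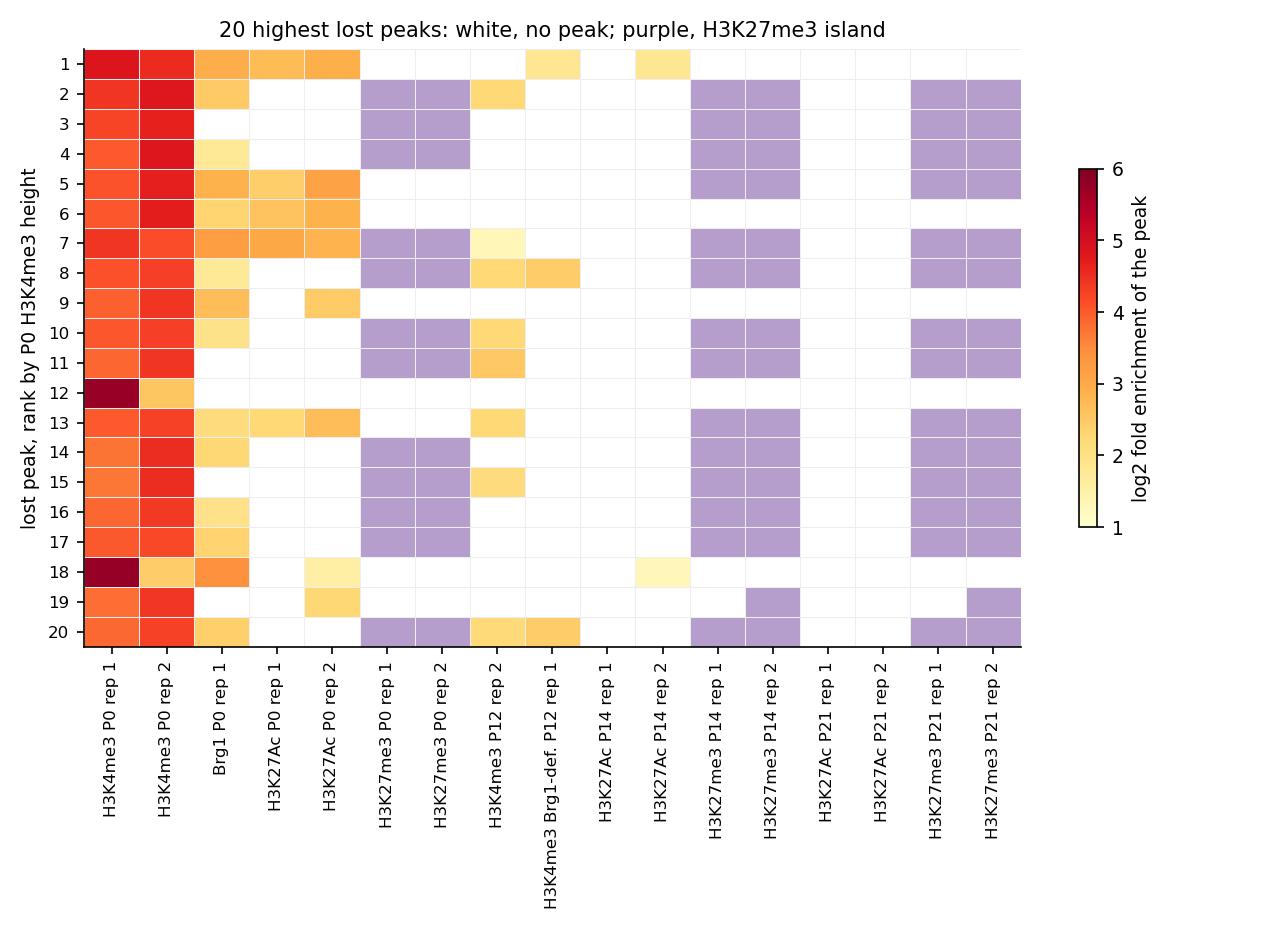
The 20 lost peaks with the highest P0 H3K4me3, by rank, against 17 libraries. Colour gives the log2 fold enrichment of the overlapping peak, white no peak, and purple an H3K27me3 island. Ranks 5 and 13 gain islands in both replicates of P14 and P21, and the acetylated ranks 1 and 6 have none at any stage. The peak at chr10:12267697-12269091 gains islands in replicate 2 of P14 and P21 alone.

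The 5 lost peaks with the highest P0 H3K27Ac all had Brg1, with heights between 8.54 and 13.7. At chr18:75594504-75595228 H3K27Ac was 9.19 and 16.9 at P0, 2.86 in P14 replicate 2 and not called in the other 3 later libraries. At chr14:41769204-41769630 it was 11.98 and 16.9 at P0 and was called at P14 (4.34) and P21 (4.62) in replicate 2 alone. At chr5:121184713-121186390 it was 9.29 and 13.4 at P0 and 4.23 in P14 replicate 2, and H3K4me3 was called at P12 in both genotypes (4.54 and 4.57). At chr9:63775129-63775871 H3K27Ac was 12.4 and 11.5 at P0 and was called at P14 (3.63) and P21 (3.84) in replicate 2 alone. Islands were absent there at P0 and present in all 4 later libraries. By contrast chr18:82982203-82982483, a peak of 281 bp that lay 100 bp from a later H3K4me3 peak, kept H3K27Ac at 4.87 and 10.96 in the P14 libraries and at 9.93 in P21 replicate 2.

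The 5 lost peaks with the most Brg1 had Brg1 heights between 15.1 and 18.0 and low H3K4me3, from 3.49 to 8.77 over both P0 replicates. All lay between 563 and 3051 bp from a later H3K4me3 peak. At chr14:62302913-62303603 (Brg1 17.7) no H3K27Ac was called in any library and islands were present at every stage. At chr2:26355215-26356213 (Brg1 16.6) H3K27Ac was 4.92 and 10.1 at P0 and was still called in both P14 libraries (2.98 and 6.21).

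The 5 lost peaks with the highest wild-type P12 H3K4me3 stood at 8.37 to 15.5 in that library. The highest of them, at chr16:20591412-20591728, had only 5.01 and 3.29 at P0 and shares its replicate 1 peak with another peak. At chr5:91331841-91333169 H3K4me3 was 15.2 and 12.2 at P0 and 11.2 at wild-type P12, with islands at every stage and neither Brg1 nor H3K27Ac. In the Brg1-deficient P12 library 1 of the 5 had a peak, at chr1:62842122-62842816 (8.37 in the wild-type and 5.42 in the Brg1-deficient library).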

How the data were processed

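Reads were mapped to mm9 by the authors. The submitters' processing notes name BWA 0.5.9-r26, MACS2 2.0.9 and SICER 1.1 among their tools. The deposited lists hold the peaks of each library on its own, not of pooled replicates. For H3K4me3, H3K27Ac and Brg1 the authors give the fold enrichment of each peak, a ratio to background at the summit, its −log10 p-value and −log10 q-value and the summit position. For H3K27me3 the deposited lists give islands with a score, which was not used. The weakest peaks had −log10 q-values between 1.31 and 1.51. Lists hold no reads, so depth is unknown, and input libraries were not analysed here. Treatment of controls and scaling are not given in the sources used here.

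Python 3.11.15 (numpy 2.4.6, pandas 2.3.3) was used to find overlaps of at least 1 bp, checked against bedtools 2.31.1. Islands were read as ending on the last base of a window. Shares carry Wilson 95% intervals (scipy 1.17.1), which cover counting error only. Figures were drawn with matplotlib 3.10.9. For H3K27Ac heights, peaks of the 6 wild-type P0, P14 and P21 libraries were merged into 64281 regions, and the highest fold enrichment per library (0 without a peak) was scaled on the median over regions with a peak in every library. limma 3.58.1 (R 4.3.3, lmFit and eBayes) was run on log2(height + 2.19), the pseudocount being the 5th percentile of heights, with all 6 libraries, no block and Benjamini-Hochberg adjustment over the 33340 regions with a peak in at least 2 libraries. Fold changes on this scale understate those of low regions. The fit was tested on simulated data. Replicates are separate libraries by their titles, and no label says that they came from different litters, so p-values measure the spread between these libraries.

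The members, the comparison classes and the named loci were chosen with earlier results of these data known. Named loci are the 20 lost peaks with the highest mean log2 P0 H3K4me3 height, and the 5 highest by P0 H3K27Ac in both replicates, by wild-type P12 H3K4me3, by Brg1, and by P0 height among those with islands at P14 and P21. Loci at the edge of the rule and groups of neighbouring lost peaks were chosen after their values were seen. No mm9 annotation was used, so gene lists planned for retinal cell types and progenitors could not be applied, and the tissue label was not checked against marker genes. The alternatives were another overlap rule, subsets of strong peaks, replicate 1 as the base, leaving out each library, and for limma the scaling, filter, pseudocount, samples and replicate block.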

Additional observations from a re-analysis of the deposited data

How the results depend on the processing

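The number of lost peaks (1868) was 1792 with an overlap of at least 50% of either peak, 2180 with replicate 1 peaks as the base and 0 with the strongest 50% of P0 peaks, where no share could be computed. Leaving out 1 H3K4me3 library gave 1875 to 3445. With an overlap of 50% the Brg1 share was 40.3%. Leaving out 1 library moved the Brg1 share between 41.2% and 46.9%, H3K27Ac in both P0 replicates between 6.98% and 29.3%, H3K27me3 in both replicates of P0 between 33.9% and 46.2%, of P14 between 36.9% and 58.4% and of P21 between 41.5% and 55.03%, wild-type P12 H3K4me3 between 16.0% and 31.3% and Brg1-deficient P12 H3K4me3 between 2.84% and 7.61%. Where the library left out was of H3K27Ac or H3K27me3 itself, the mark was required in the remaining replicate alone. The upper ends of the H3K27Ac and H3K27me3 ranges came from such cases and are not shares in both replicates. The widest moves came from leaving out P0 H3K4me3 replicate 1 (3445 peaks), P21 H3K4me3 replicate 1 (31.3% and 7.61% at P12) and P0 H3K27Ac replicate 1 (29.3%). With a peak in either replicate the shares were 29.7% for P0 H3K27Ac and 47.8%, 59.7% and 56.6% for H3K27me3 at P0, P14 and P21. With only the strongest 50% of a mark's peaks, Brg1 was at 29.0% of lost peaks, H3K27Ac at 0.696%, and H3K4me3 at 0% in wild-type and 0.0535% in Brg1-deficient P12.

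Alternatives chosen after seeing the data were these. With equal peak numbers in all P0, P14 and P21 H3K4me3 libraries there were 1111 lost peaks, with Brg1 at 51.4%, H3K27Ac at 10.4%, H3K27me3 at 44.8%, 48.2% and 53.6%, and P12 H3K4me3 at 45.9% and 12.7%. Among lost peaks farther than 5000 bp from a later peak the shares were 41.3% for Brg1 and 31.9%, 36.3% and 42.5% for H3K27me3. Equal peak numbers at P12 lowered the wild-type share to 7.98% and the difference to 3.96 percentage points. The strongest 50% of both P12 lists gave a difference of -0.0535 percentage points, a sign reversed by 1 peak. Peaks with a replicate 1 peak of their own kept each share within its interval, as did the autosomes alone for the 3 H3K27me3 shares, the only ones computed there.

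For H3K27Ac, the P14 count of 0 lost peaks called lower became 67 of 291 with a pseudocount of 1 and 73 of 253 with only the compared stages. In these fits 3.34% and 5.28% of all regions were called lower. The P21 count of 49 of 291 became 0 of 291 without scaling. It was 0 of 9 with regions in every library and 6 of 658 with regions in at least 1. With a pseudocount of 1 it was 77 of 291, and with only the compared stages 92 of 220. The shares of all regions called lower were 0%, 0.673%, 0.297%, 3.94% and 8.54% in this order, against 2.46% in the main fit. Without scaling, the median log2 difference over all regions was 0.45 for P14 and 0.23 for P21 in place of 0.36 and 0.52, and at lost peaks -0.62 and -0.74. Over the 8 regions at lost peaks with a peak in every library it was 0.04 for P21, the opposite sign of the main value. With the replicate block 0 of the 291 lost peaks were called lower for P14 and 82 for P21. Of all regions, 0% and 4.66% were called lower in that fit. Replicate differences correlated at 0.08 between P0 and P14 and 0.02 between P0 and P21, so replicate numbers did not pair P0 with later libraries. Between P14 and P21 they correlated at 0.45, so same-numbered libraries of these stages deviated together in part. The causes were not tested. Of the values under alternatives, 76 kept their size or call, 60 moved and 1 reversed.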
